A study of Mus musculus with 2 samples.

Results

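The 10 genes described here act on collagen after its chains are made. They are the lysyl oxidase genes Lox, Loxl1, Loxl2 and Loxl3, the prolyl 4-hydroxylase subunit genes P4ha1 and P4ha2, the lysyl hydroxylase genes Plod1, Plod2 and Plod3, and Serpinh1, which encodes the collagen chaperone HSP47. They were taken by gene symbol from the platform annotation, out of 16593 genes named there, and all 10 had a probe, 1 probe each. The study hybridised total RNA of mouse fibroblasts to 2 Illumina bead arrays of 1 colour. One held RNA of cells on gold nanoparticles (AuNPs) under an electromagnetic field (EMF), and the other held RNA of control fibroblasts. The series title places the study in work on EMF-driven conversion of cells into dopamine neurons. The labels give no strain, passage, field strength or exposure time for either array, and no array of AuNPs alone or of EMF alone was analysed here. With 1 array per condition no difference has a replicate check, and no p-value between conditions is given.

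Newly made collagen chains are modified in the endoplasmic reticulum. Prolyl 4-hydroxylases hydroxylate prolines, which keeps the triple helix stable at body temperature, and lysyl hydroxylases hydroxylate lysines, which can then carry sugars and form the more stable kinds of cross-link. HSP47 binds the folded triple helix until it leaves for the Golgi. Outside the cell, the copper-dependent lysyl oxidases convert lysines of collagen and elastin to aldehydes, from which covalent cross-links form. Fibroblasts are a main source of these enzymes in connective tissue, and LOX, P4HA1, P4HA2 and PLOD2 are known targets of the hypoxia-inducible transcription factors.

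Of the 10 genes, 9 were detected on both arrays, at a detection p under 0.01, and 1, Loxl3, on neither. None of the 9 differed by 1.5-fold in either direction. Over all 8651 detected genes, 3.34% passed 1.5-fold in the higher direction and 2.91% in the lower, while 0.520% and 0.485% passed 2-fold higher and lower, so a set of 9 genes with none past these limits is close to the background. Differences are given as normalized log2 signal with EMF and AuNPs minus control. They ran from -0.23 for P4ha1 to 0.16 for Loxl2, with a median of -0.01, beside a median of 0.03 over all detected genes. Of the 9, 4 lay above 0 and 5 below, against 55.8% and 44.0% of all detected genes.

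**Figure D1:**
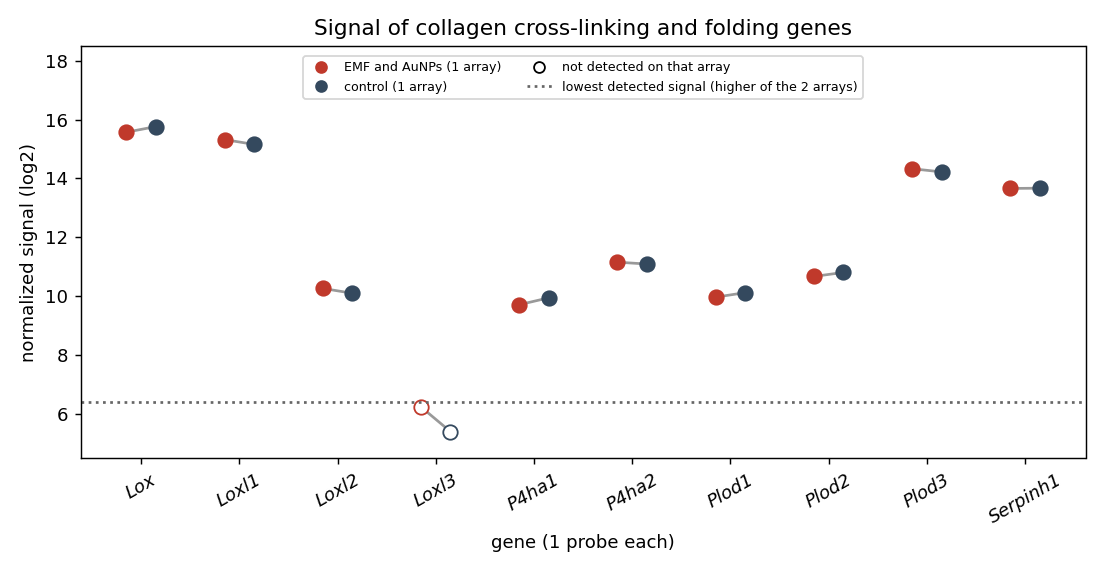
Normalized log2 signal of each of the 10 genes on the EMF and AuNP array (red, left) and on the control array (dark, right), 1 probe and 1 array per point. The lines between paired points are nearly level for the 9 detected genes, and both points of Loxl3 (open) lie under the lowest detected signal (dotted).

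The promoters of P4ha1 and P4ha2 are shown because both genes answer to hypoxia-inducible factors elsewhere, while on these arrays P4ha1 was lower and P4ha2 slightly higher. Each window is RefSeq sequence of the GRCm38.p6 build and runs from 250 bases before the gene's start to 50 bases after it. The P4ha1 window is chr10:59323046-59323345 on the plus strand and the P4ha2 window is chr11:54100674-54100973 on the plus strand. Capitals mark ACGTG or GCGTG, the core letters of the hypoxia response element, read on either strand, so that CACGT and CACGC are matches on the other strand.
P4ha1: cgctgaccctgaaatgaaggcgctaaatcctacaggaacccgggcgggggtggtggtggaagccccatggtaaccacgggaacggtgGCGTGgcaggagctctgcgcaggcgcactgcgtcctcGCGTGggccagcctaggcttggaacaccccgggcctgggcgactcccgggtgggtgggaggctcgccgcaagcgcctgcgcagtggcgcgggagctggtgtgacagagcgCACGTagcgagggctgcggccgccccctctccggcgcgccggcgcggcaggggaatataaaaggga
P4ha2: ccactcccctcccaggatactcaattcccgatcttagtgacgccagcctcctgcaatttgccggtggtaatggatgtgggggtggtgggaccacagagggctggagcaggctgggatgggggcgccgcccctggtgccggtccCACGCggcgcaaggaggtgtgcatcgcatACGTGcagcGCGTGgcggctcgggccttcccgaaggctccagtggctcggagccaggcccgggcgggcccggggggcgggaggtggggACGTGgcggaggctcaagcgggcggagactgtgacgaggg
The P4ha1 window held 1 match to ACGTG and 2 to GCGTG, and the P4ha2 window 2 of each, with no overlaps. Of all 32851 promoter windows of this length, 19.6% held ACGTG, 32.4% held GCGTG and 43.8% held either. These shares count windows with any match, not numbers of matches, and were not matched for base content. The P4ha1 and P4ha2 windows were each 70.3% G or C. A match is a string of letters and not a measured binding site. Of the 10 genes, 5 had a window in the table. Those of Plod1 (2 matches to GCGTG, none to ACGTG), Plod3 (1 to ACGTG and 3 to GCGTG) and Serpinh1 (1 to ACGTG, none to GCGTG) were searched in the same way.

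Lox encodes the founding lysyl oxidase, which cross-links fibrillar collagen and elastin. Its probe, ILMN_2997494, had an intensity of 49254 with EMF and AuNPs and 56141 in control, or 15.57 and 15.76 as normalized log2 signal. Lox was therefore 1.14-fold lower, a log2 difference of -0.19. The robust SD of the differences among genes of like brightness (their scaled median absolute deviation) was 0.14. This yardstick mixes true change with noise and is no substitute for replicates. The highest intensity on either array was 68139 with EMF and AuNPs and 69257 in control, so Lox lies near the upper end of the measured range. Whether its signal is compressed there was not tested.

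Loxl1, whose product maintains elastic fibres in mice, went the other way. Its intensity on probe ILMN_1255871 was 41390.1 with EMF and AuNPs and 36598 in control. The log2 difference was 0.16, or 1.12-fold higher, against the same robust SD of 0.14. Loxl2, a lysyl oxidase that acts on collagen IV of basement membranes, had 1296 with EMF and AuNPs and 1224 in control on probe ILMN_2727638. It was likewise 1.12-fold higher, with a log2 difference of 0.16 inside the robust SD of 0.23. Loxl3, which cross-links collagen in mouse palate and spine development, had 172 with EMF and AuNPs and 135 in control on probe ILMN_2665272. Its detection p was 0.020 with EMF and AuNPs and 0.12 in control. The lowest detected intensity was 181 with EMF and AuNPs and 187 in control. Loxl3 therefore missed the detection limit of 0.01 on both arrays, and no fold is given.

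The log2 difference of Loxl1 exceeded that of Lox by 0.35, a gap that ran from 0.35 to 0.37 over the 9 processing settings. That of Loxl2 exceeded it by 0.35 as well, with a range from 0.28 to 0.36. Such pairs were named after their values were seen. With median centring in place of quantile normalization, Lox stood at -0.11 and Loxl1 at 0.25. The single differences thus moved more with the scaling than the gap between Loxl1 and Lox did. A change of scaling shifts genes of like brightness nearly alike, so it largely cancels in their gap. The narrow range of this gap therefore does not show that Loxl1 and Lox diverged.

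P4ha1 and P4ha2 encode alternative catalytic subunits of collagen prolyl 4-hydroxylase. P4ha1 had an intensity of 919 with EMF and AuNPs and 1114 in control on probe ILMN_1234565. At 1.18-fold lower, a log2 difference of -0.23, this was the largest decrease of the 9 genes and just past the robust SD of 0.23 for its brightness. P4ha2 had 2349 with EMF and AuNPs and 2319 in control on probe ILMN_2789562. Its log2 difference of 0.06, or 1.05-fold higher, was well inside the robust SD of 0.18. The gap between both subunits was 0.30 and lay between 0.27 and 0.33 over the 9 settings.

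The lysyl hydroxylases also differed among themselves in direction. Plod1, which hydroxylates lysines of the triple helix, had 1072 with EMF and AuNPs and 1242 in control on probe ILMN_2681289. Plod2, which acts on the telopeptides at the chain ends and so sets the type of cross-link, had 1705 with EMF and AuNPs and 1921 in control on probe ILMN_2819929. Plod3, whose product also adds sugars to hydroxylysine, had 20728 with EMF and AuNPs and 19216 in control on probe ILMN_2723058. As log2 differences these were -0.15 for Plod1 (1.11-fold lower), -0.14 for Plod2 (1.10-fold lower) and 0.11 for Plod3 (1.08-fold higher). All 3 lay inside the robust SDs of their brightness, which were 0.23, 0.21 and 0.14.

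Serpinh1 was the most even of the 9 genes. Its intensity on probe ILMN_2822850 was 13029 with EMF and AuNPs and 13176 in control, and its log2 difference was -0.01. The sign has no meaning at this size, since median centring gave 0.06.

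**Figure D2:**
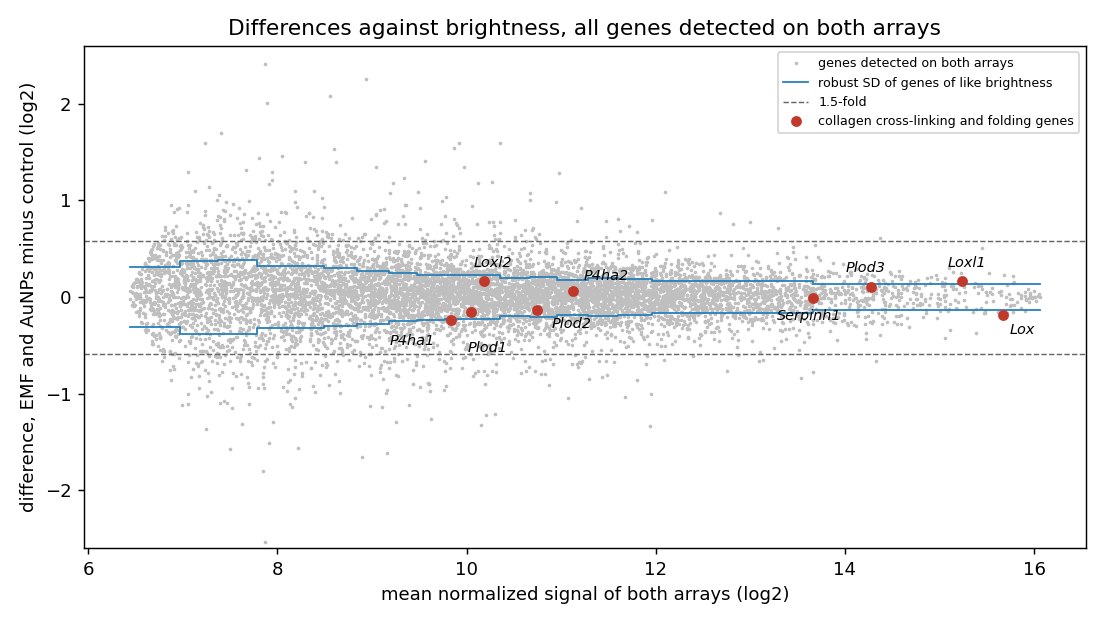
Log2 difference (EMF and AuNPs minus control) against the mean normalized log2 signal for the 8199 genes detected on both arrays (grey), with the 9 detected collagen enzyme and chaperone genes in red, the robust SD of genes of like brightness in blue and 1.5-fold dashed. The red points lie well inside the dashed lines, and Lox, Loxl1 and P4ha1 lie just past the blue ones.

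Past 1 robust SD of their brightness lay 1 gene in the higher direction, Loxl1, and 2 in the lower, Lox and P4ha1. Among all detected genes, 19.0% were higher and 14.9% lower by that measure, so 3 of 9 is close to what the whole array shows. These calls are measured from 0 and belong to the setting used in the text, since robust SDs were not recomputed for the others. Lox at -0.11 with median centring and P4ha1 at -0.21 without background correction would lie inside the same robust SDs of 0.14 and 0.23. The directions of 8 of the 9 were the same in all 9 settings, Serpinh1 being the exception. For a gene of 1 probe detected on both arrays, the other detection limits and the averaging of probes cannot change the value. The deposited log2 values repeat the setting without background correction. The ranges over 9 settings given for such genes therefore rest on fewer distinct values. Since all settings start from the same 2 arrays, these ranges and directions describe the processing and not the reproducibility of the cells.

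**Figure D3:**
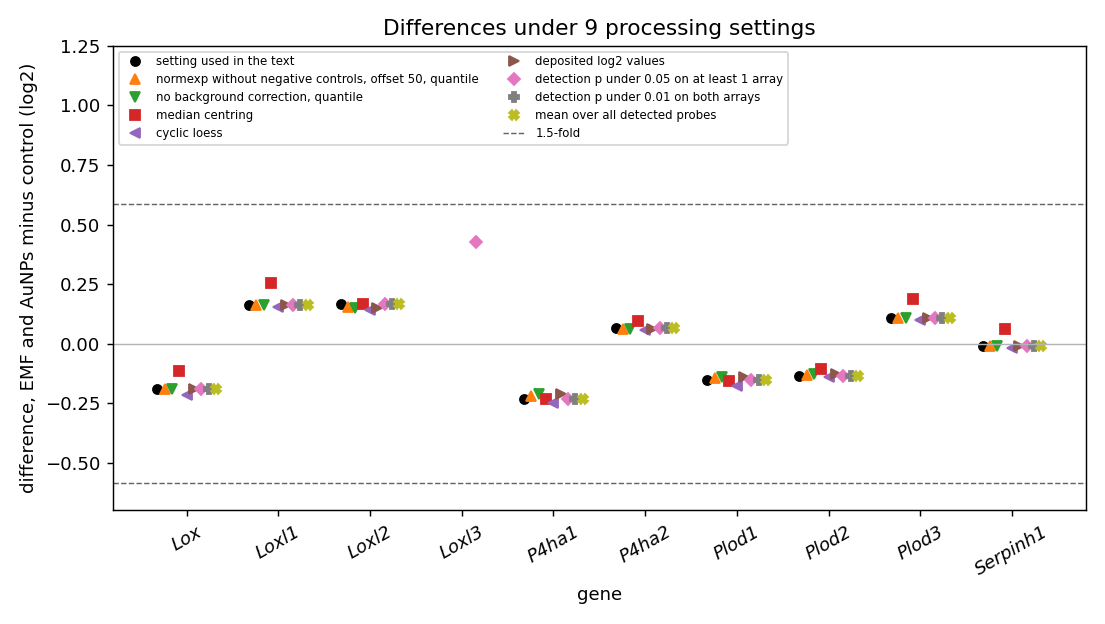
Log2 difference (EMF and AuNPs minus control) of each gene under the setting used in the text (black) and 8 alternatives (coloured), with 1.5-fold dashed. The points of a gene cluster within about 0.1, median centring (red squares) lies highest for all detected genes but P4ha1 and Plod1, and Loxl3 has a value, a lower bound, only with the looser detection limit.

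Other enzymes of the same steps were compared as a list. Of 11 genes listed, 8 were detected. None passed 1.5-fold, 7 lay below 0 and 1 above, and the median difference was -0.11, with all values between -0.17 and 0.05. Each of these values lay inside the robust SD of its brightness. For this list and those below, the shares over all detected genes were 55.8% above 0 and 44.0% below, with a median of 0.03. Such counts come from 1 array per condition and do not show a shared decrease. P4hb, protein disulphide isomerase and the shared beta subunit of prolyl 4-hydroxylase, was the gene above 0, at 0.05. Colgalt1, which adds galactose to hydroxylysine, differed by -0.17 and Crtap, a partner of the prolyl 3-hydroxylase P3H1, by -0.15. Loxl4 and Colgalt2 were not detected and Ppib was not analysed here.

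Of 9 other chaperones and export factors of collagen, 7 were detected, with a median of -0.14, 6 values below 0 and 1 above. That median was -0.05 with the detected probes of each gene averaged. Sec23a passed 1.5-fold lower, as did 2.91% of all detected genes. It encodes a coat protein of the COPII vesicles that carry cargo, procollagen included, out of the endoplasmic reticulum. Its normalized log2 signal was 10.17 with EMF and AuNPs and 10.80 in control. The difference was -0.63, or 1.55-fold lower, against a robust SD of 0.20, on 1 probe. It stayed between -0.64 and -0.59 over the 9 settings. The prolyl isomerase genes Fkbp14 and Fkbp7 differed by -0.21 and -0.01. Tmem38b, an ion channel gene of the endoplasmic reticulum, differed by -0.14, with a second probe at 0.06.

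The substrates of these enzymes had a median of -0.15, with 5 of 6 below 0 and none past 1.5-fold by the probe of highest signal. The median was -0.08 with median centring and also with probes averaged. Eln, the elastin gene and a lysyl oxidase substrate, had the largest difference. Its normalized log2 signal was 14.85 with EMF and AuNPs and 15.27 in control, a difference of -0.42 or 1.34-fold lower, against a robust SD of 0.14. It ran from -0.44 to -0.34 over the settings. Col1a1 and Col5a1, which encode chains of fibrillar collagens, differed by -0.15 each. Col3a1, named after its values were seen, differed by -0.15 on the probe of highest signal and by 0.66, past 1.5-fold, on its second probe, and averaging its probes gave 0.25.

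Among 12 genes of procollagen processing and fibril assembly, 8 were detected, with a median of 0.03, 4 above 0, 3 below and 1 at 0. None passed 1.5-fold. Sparc, a collagen-binding matrix protein gene, held the same rank on both arrays and differed by 0.00, while its second probe differed by -0.60, past 1.5-fold. The brighter Sparc probe had a normalized log2 signal of 15.96 on both arrays, above that of Lox. Whether it is compressed there was not tested. Dcn and Lum, which encode small proteoglycans that bind fibrils, differed by -0.07 and -0.23, and a second Dcn probe by -0.41. Averaging the detected probes of each gene gave this list a median of -0.23, so its sign rests on which probe stands for a gene. Each of the 10 cross-linking and folding genes has a single probe, so no second probe could check its value.

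**Figure D4:**
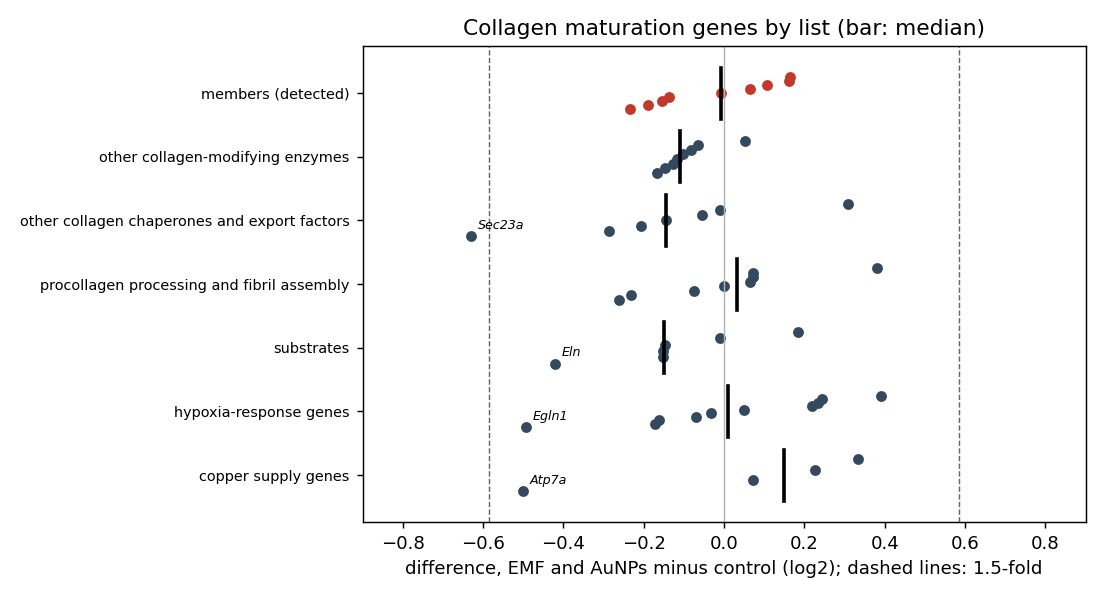
Log2 difference (EMF and AuNPs minus control) of the 9 detected members (red) and of the detected genes of 6 related lists (dark), 1 point per gene by its brightest probe, with black bars for medians and 1.5-fold dashed. Sec23a is the 1 gene past a dashed line, and the medians lie between -0.15 and 0.15.

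Lysyl oxidases need copper, which is loaded in the secretory pathway. Of 4 copper supply genes, 3 lay above 0, none passed 1.5-fold and the median was 0.15. Slc31a1, the copper importer gene, differed by 0.33, the copper chaperone gene Atox1 by 0.23 and Ccs, which loads superoxide dismutase, by 0.07. Their robust SDs were 0.18, 0.17 and 0.17. Atp7a, the pump that brings copper to the lysyl oxidases, differed by -0.50 against a robust SD of 0.24 and is named after its value was seen. Hypoxia-response genes had a median of 0.01, with 5 of 10 detected genes on each side of 0 and none past 1.5-fold. Aldoa, Ldha and Slc2a1, all genes of glucose use, differed by 0.39, 0.22 and 0.24, past robust SDs of 0.17, 0.14 and 0.18. Egln1, an oxygen sensor gene, Adm and Vegfa differed by -0.49, -0.17 and -0.16 and are named after their values were seen. Adm and Vegfa lay inside their robust SDs of 0.24 and 0.18. Egln1 lay past its robust SD of 0.38, at a dim signal of 7.43 with EMF and AuNPs and 7.93 in control. A second Egln1 probe differed by 0.03 and a second Vegfa probe by 0.11. Of the known targets among the members, P4ha2 stood at 0.06, Plod2 at -0.14, Lox at -0.19 and P4ha1 at -0.23. P4ha2 and Plod2 lay inside the robust SDs of their brightness. A part of hypoxia signalling in these values was not tested.

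The fibroblast label was checked against marker genes. All 10 fibroblast markers with a named probe were detected. By the probe of highest signal, their median difference was -0.12. Their summed linear signal was 177509 with EMF and AuNPs and 192199 in control. Col1a1, Col1a2, Col3a1, Dcn and Lum among them also belong to the substrate or fibril assembly lists above. The marker median is therefore not independent of those lists. Second probes of Col3a1 and Dcn, at 0.66 and -0.41, are not in it. Of 10 macrophage and leukocyte markers with a named probe, 9 were detected, among them Lyz2 and Adgre1, and Itgam was not, while Ptprc was detected in control alone. Probes of 1 gene disagreed: Adgre1 differed by 0.06 on the probe of highest signal and by 0.13 and -1.38 on others, and Lyz2 by -0.11, then 0.75 and 0.15. By the probe of highest signal, the summed signal of the macrophage and leukocyte markers was 152468 with EMF and AuNPs and 142804 in control. Their median difference was 0.08. The brightest, Laptm5, Lyz2 and Fcer1g, stood at 15.49, 15.38 and 15.25 (log2) with EMF and AuNPs. In control they stood at 15.40, 15.49 and 14.95. The fibroblast marker Col1a1 stood at 15.70 and 15.85, and the dimmest detected leukocyte marker, Ptprc, at 6.93 in control. The markers therefore do not show that the RNA came from fibroblasts alone. The part that the mix of cells has in the small differences of the collagen enzymes was not tested. In bulk RNA, fewer cells of a type and less RNA per cell cannot be told apart. Of 6 neuron markers, 1 was detected, Map2, at -0.12.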

How the data were processed

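Trizol extraction of RNA and biotin labelling of cRNA with a TotalPrep kit are described per the labels' protocols, and per the submitters' processing notes GenomeStudio 2011.1 was used. The authors deposited a linear signal intensity, not normalized between arrays, for 25697 probes, with a detection p-value beside each. They also deposited log2 values, which equalled quantile normalized log2 intensities without background correction to within 4.99988e-07, with a median of 7.35 on each array. The genome build behind the array was not given in the sources used here.

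Background correction and quantile normalization of the intensities used neqc (limma 3.58.1, R 4.3.3) with the detection p-values and an offset of 16. A gene was detected at p under 0.01 on at least 1 array and represented by its brightest such probe. Of 8651 detected genes, 8199 were so on both arrays. For a gene detected on 1 array the difference is a bound against the lowest detected signal. Of the probes, 23978 had 1 gene name, 0 several and 1719 none, and by Entrez number 23962 were found in the RefSeq table of GRCm38.p6. Robust SDs were taken in 20 equal bins of brightness. With 1 array per condition no test was made, calls are by size (1.5-fold and 2-fold), and precision is limited by the number of arrays. The steps were tested on simulated data.

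The members and lists were chosen with earlier results of these data known. All members are named. Of each collagen, hypoxia and copper list, genes past 1.5-fold and up to 3 others of highest signal are named, and exceptions are marked. Cell type markers are named after their values were seen. Alternatives covered background correction, scaling, the deposited log2 values, the detection limit and the averaging of probes.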

Additional observations from a re-analysis of the deposited data

How the results depend on the processing

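Under all 8 alternatives, 0 of the 9 detected members passed 1.5-fold or 2-fold in either direction. The median difference of the detected members ran from -0.02 with cyclic loess to 0.06 with median centring. With a detection p under 0.05, Loxl3 counted as detected with EMF and AuNPs alone, with a bound of 0.43 (log2) that holds for neqc values alone, and the median became 0.03. Its deposited log2 values, with no background correction, differed by 0.38. The median of the procollagen processing and fibril assembly list turned from 0.03 to -0.23 on averaging the detected probes of each gene, because second probes of Bmp1, Sparc and Dcn were lower than the brightest ones; the medians of the other 5 collagen, hypoxia and copper lists moved by less than 0.1. Those of the marker lists were not recomputed. Without background correction, 1.38% of all detected genes passed 1.5-fold higher and 1.60% lower, against 3.34% and 2.91% with it. No paired analysis was possible because each condition has 1 array, and for the same reason no array could be left out. Loxl3 lay under the detection limit on both arrays, so no fold is given for it.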

Other observations

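Endothelial and epithelial marker genes were mostly below detection on both arrays, while 9 of 10 macrophage and leukocyte markers with a named probe were detected. Of 4 endothelial markers with a named probe, 1 was detected, the receptor gene Tek, at a difference of -0.27 (log2, EMF and AuNPs minus control). Tek was dim, at 6.90 with EMF and AuNPs and 7.16 in control, and lay inside its robust SD of 0.38. Of 3 epithelial markers, 1 was detected, the keratin gene Krt8, at 0.54 on a dim probe. Of 6 bone and cartilage markers, 3 were detected: Sox9, a cartilage transcription factor gene, differed by 0.23, Col2a1, the cartilage collagen gene, by -0.51, and Alpl, the alkaline phosphatase gene, was detected with EMF and AuNPs alone, with a bound of 0.41. Col2a1 was also dim, at 6.77 with EMF and AuNPs and 7.27 in control, and its second probe differed by -0.42. The measured differences were under 1.5-fold, and the bound of Alpl does not show whether it was. Among macrophage and leukocyte markers, Cd52, a leukocyte surface antigen gene, passed 1.5-fold by its brightest probe, at 0.80, as did a dimmer probe of Lyz2 at 0.75 and, in the lower direction, one of Adgre1 at -1.38. By the brightest probe, 3.34% of all detected genes passed 1.5-fold higher and 2.91% lower. Fcer1g and Laptm5, both genes of leukocytes, differed by 0.30 and 0.08. Ptprc, detected in control alone, has a bound of -0.51, which does not show whether it passed.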
